A study of Mus musculus with 24 samples.

Results

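The 38 genes described here, chosen by name, are 22 glycolysis genes and 16 other target genes of the hypoxia-inducible transcription factor HIF-1. Each had 1 row among the 43629 genes of the deposited matrix, and all 38 were among the 18637 genes tested. RNA-seq had been run on bone marrow-derived macrophages of C57BL/6 mice at postnatal week 10, of the genotypes CITED2-KO (KO) and Wild Type (WT). Cells of each genotype received LPS, IFNg or IL4 or were left as control, giving 8 groups of 3 libraries and 24 libraries in all. LPS is a bacterial cell wall component sensed by Toll-like receptor 4, IFNg is the cytokine of classical macrophage activation and IL4 that of alternative activation. The labels used here do not state how or in which cells Cited2 was deleted, the dose or length of treatment, the oxygen level, or whether replicates came from separate mice or cultures, so p-values measure the spread between these libraries, which may be technical.

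Glycolysis turns glucose into pyruvate and, through lactate dehydrogenase, into lactate that leaves the cell. Macrophages activated by LPS raise this pathway, and HIF-1, a dimer of HIF-1α and ARNT, is a known driver of its genes when oxygen is low or when inflammatory signals stabilise HIF-1α. CITED2 is a transcriptional coregulator that competes with the activation domain of HIF-1α for the coactivators CBP and p300, and its gene is itself a HIF-1 target.

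Cited2 averaged 0.558% to 1.36% of the WT mean in KO libraries of the same treatment. The recovered read totals ran from 1478507 in KO LPS replicate 1 to 73409343, with a median of 29551522 per library. The unit is the normalized read count, a read count divided by a factor per library. In KO LPS replicate 1, 1 read was worth 23.6 of these units and a count of 0 allowed up to 70.9 (3 reads), a floor for counting error only. There 8 of the 38 members had fewer than 10 reads: Slc2a3 (0), Pfkm (1), Ankrd37 (1), P4ha2 (3), Ddit4 (3), Gapdh (5), Bnip3 (7) and Adm (9). The LPS comparisons were therefore also fitted without that library. The summed level of 8 macrophage marker genes was 103700 to 164000 over all libraries, against 269 to 2575 for neutrophil, 143 to 331 for fibroblast, 63.8 to 366 for mast cell, 0 to 151 for dendritic cell, 21.5 to 70.9 for T and NK cell, 6.33 to 27.2 for B cell and 0 to 3.43 for erythroid markers. In bulk libraries fewer cells of a type and less RNA per cell cannot be told apart.

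Promoters of members that were lower or higher in KO cells with LPS are shown because HIF-1 recognises a short core, ACGTG or GCGTG. The 4 with the largest difference among those holding a core were taken from each group of members. They are RefSeq sequences of build GRCm38.p6, from 250 bases before to 50 after the annotated start, printed 5′ to 3′ along the gene, with every core on either strand in capitals (a core on the other strand appears as its reverse complement). The first core also lies inside the E-box, which other factors bind. The glycolysis genes are Pfkl at chr10:78009758-78010057 (minus strand), Slc16a3 at chr11:120948817-120949116 (plus strand), Gapdh at chr6:125165724-125166023 (minus strand) and Pfkfb3 at chr2:11553880-11554179 (minus strand). The other HIF-1 targets are Bnip3 at chr7:138909457-138909756 (minus strand), Ddit4 at chr10:59951721-59952020 (minus strand), Ak4 at chr4:101419039-101419338 (plus strand) and Pdk1 at chr2:71872974-71873273 (plus strand).
Pfkl: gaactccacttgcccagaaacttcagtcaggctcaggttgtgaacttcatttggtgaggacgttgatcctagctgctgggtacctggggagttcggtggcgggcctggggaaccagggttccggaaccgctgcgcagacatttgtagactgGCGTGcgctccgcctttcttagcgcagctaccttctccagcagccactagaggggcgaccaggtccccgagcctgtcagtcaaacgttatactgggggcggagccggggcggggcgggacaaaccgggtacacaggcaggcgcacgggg
Slc16a3: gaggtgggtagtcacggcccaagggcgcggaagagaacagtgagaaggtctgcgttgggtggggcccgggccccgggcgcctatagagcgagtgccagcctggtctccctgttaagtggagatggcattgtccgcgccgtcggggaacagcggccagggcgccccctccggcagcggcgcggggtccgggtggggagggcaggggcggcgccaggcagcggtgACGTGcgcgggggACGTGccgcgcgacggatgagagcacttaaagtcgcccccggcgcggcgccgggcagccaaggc
Gapdh: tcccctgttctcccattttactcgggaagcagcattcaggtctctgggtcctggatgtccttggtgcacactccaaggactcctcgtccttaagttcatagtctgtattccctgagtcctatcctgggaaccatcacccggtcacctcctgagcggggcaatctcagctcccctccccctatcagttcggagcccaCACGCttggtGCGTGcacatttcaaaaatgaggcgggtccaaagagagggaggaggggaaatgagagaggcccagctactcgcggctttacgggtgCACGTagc
Pfkfb3: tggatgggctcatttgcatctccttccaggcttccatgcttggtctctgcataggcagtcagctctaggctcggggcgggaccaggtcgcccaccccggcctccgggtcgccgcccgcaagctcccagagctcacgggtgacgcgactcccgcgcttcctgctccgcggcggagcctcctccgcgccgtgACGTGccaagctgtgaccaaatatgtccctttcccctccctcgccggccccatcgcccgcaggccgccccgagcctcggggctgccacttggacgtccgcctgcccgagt
Bnip3: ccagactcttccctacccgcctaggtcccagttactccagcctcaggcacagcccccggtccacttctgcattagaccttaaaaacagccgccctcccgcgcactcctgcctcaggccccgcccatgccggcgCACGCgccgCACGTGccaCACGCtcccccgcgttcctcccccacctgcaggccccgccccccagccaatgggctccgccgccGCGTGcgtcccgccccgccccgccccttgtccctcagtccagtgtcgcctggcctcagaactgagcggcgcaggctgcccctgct
Ddit4: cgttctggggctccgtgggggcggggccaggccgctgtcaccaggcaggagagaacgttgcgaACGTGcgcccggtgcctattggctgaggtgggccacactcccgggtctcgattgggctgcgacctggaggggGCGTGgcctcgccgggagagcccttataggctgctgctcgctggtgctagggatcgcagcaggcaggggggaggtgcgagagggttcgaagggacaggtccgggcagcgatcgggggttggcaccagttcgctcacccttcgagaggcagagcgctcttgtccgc
Ak4: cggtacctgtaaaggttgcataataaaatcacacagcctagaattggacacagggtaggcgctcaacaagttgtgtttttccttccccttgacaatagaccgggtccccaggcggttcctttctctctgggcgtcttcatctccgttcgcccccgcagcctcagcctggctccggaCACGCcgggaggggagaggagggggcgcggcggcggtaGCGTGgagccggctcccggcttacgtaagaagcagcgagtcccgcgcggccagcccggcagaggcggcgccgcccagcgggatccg
Pdk1: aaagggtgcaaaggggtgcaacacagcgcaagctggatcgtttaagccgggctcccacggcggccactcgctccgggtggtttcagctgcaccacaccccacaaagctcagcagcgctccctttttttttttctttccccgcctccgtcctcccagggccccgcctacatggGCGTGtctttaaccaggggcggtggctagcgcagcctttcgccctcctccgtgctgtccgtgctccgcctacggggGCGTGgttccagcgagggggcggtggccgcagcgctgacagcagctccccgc

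A core was present in 15 of 21 promoters of glycolysis genes (71.4%) and in 12 of 14 of the other HIF-1 targets (85.7%), against 11836 of 27025 RefSeq promoters (43.8%). The median GC content was 57.3% over the glycolysis promoters, 68.5% over the other targets and 52.7% over all, and each core contains CG. Slc2a3, Ndrg1 and Bnip3l had no entry. With LPS, a core was in 13 of 19 promoters of members lower in KO cells, in the 3 promoters of Hk2, Hk3 and Pfkp, which were higher, and in 11 of 13 of members that did not pass. These counts use the first start listed for each gene. With every listed start, 18 of 21 glycolysis genes (85.7%), 14 of 14 other targets and 12628 of 27025 RefSeq genes (46.7%) had a core. Vegfa, Pkm and Mxi1, lower in KO cells and without a core at the first start, had one at a further start, while Tpi1, Gpi1 and Eno2, also lower, had none at the 1 start listed for each. A match is a string of letters and not a measured binding site.

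With LPS, most glycolysis genes and many other HIF-1 targets were lower in KO than in WT cells, while the genes of hexokinases 2 and 3, platelet-type phosphofructokinase and the mitophagy receptor Bnip3l were higher. Of the 22 glycolysis genes 13 were lower, 3 were higher and 6 did not pass. Of the 16 other HIF-1 targets 7 were lower, 1 was higher and 8 did not pass (limma on log2 of the normalized read count plus 1, Benjamini-Hochberg adjusted p below 0.05 over all genes tested). The same test called 22.2% of all genes, 12.5% lower and 9.70% higher. The median log2 difference was -0.41 over the glycolysis genes and -0.42 over the other targets, beside -0.06 over all genes. KO and WT values did not overlap for 17 glycolysis genes (13 with KO below, 4 with KO above) and 11 other targets (8 below, 3 above), against 24.3% of all genes. When each library was centred on its median, all genes split 2162 higher to 1554 lower in place of 1808 to 2333, the glycolysis genes split 3 to 12 and the other targets 3 to 7. The B cell marker sum was 18.5 to 23.6 in KO and 6.33 to 12.2 in WT LPS libraries, with Pax5 at 0 in both. Its value of 23.6 is 1 read in KO LPS replicate 1. The part of this marker sum in these results was not tested.

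**Figure D1:**
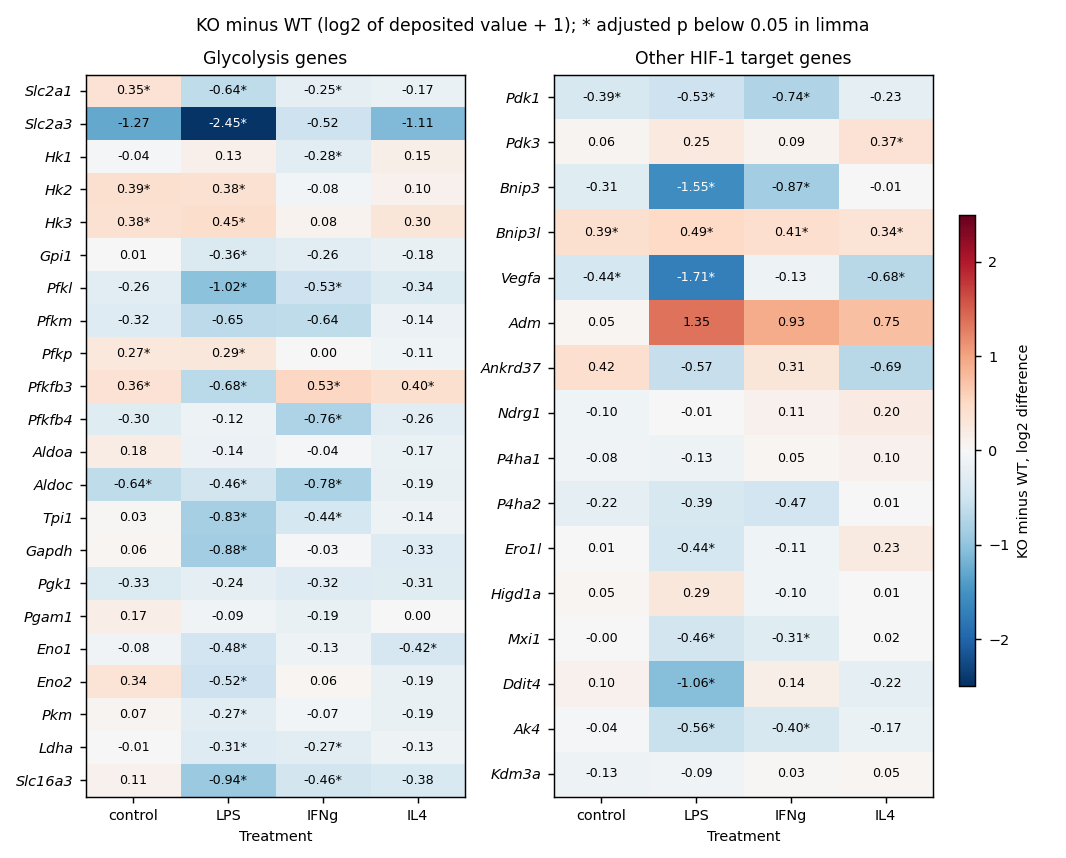
Difference between KO and WT cells (log2 of normalized read count + 1) for each member in rows and each treatment in columns, with red higher and blue lower in KO; an asterisk marks an adjusted p below 0.05 in limma. The LPS column holds most of the marked blue cells, Vegfa reaching -1.71, and Bnip3l is marked red in all 4 columns.

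Glucose enters through facilitative transporters. With LPS, Slc2a1, the gene of the transporter GLUT1 (ENSMUSG00000028645, chr4:119108711-119137983, plus strand of GRCm38), had 3780.0, 4086 and 4257 in KO libraries, against 6596, 6735 and 5611 in WT. Every KO value was below every WT value, and the log2 difference was -0.64 ± 0.08 (SE, adjusted p = 8.5e-07). Slc2a3, the gene of the transporter GLUT3, had 0, 28.3 and 22.5 in KO and 65.2, 36.7 and 44.0 in WT libraries. Its 0 came from KO LPS replicate 1, whose floor of 70.9 lies above all 3 WT values. The log2 difference of Slc2a3 was -2.45 ± 0.73 (adjusted p = 0.018) with that library and -0.88 without it (adjusted p = 0.0535). It also missed the threshold without WT LPS replicate 1 (adjusted p = 0.0728) and in edgeR (adjusted p = 0.0652), within a range of 0.0015 to 0.47 over the alternatives.

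Hexokinases trap glucose as glucose 6-phosphate, and the genes of 2 of the 3 were higher in KO cells with LPS. Hk2, the inducible hexokinase, had 16231, 18805 and 19619 in KO and 14598, 14109.6 and 13108 in WT LPS libraries, with a log2 difference of 0.38 ± 0.06, adjusted p = 9.3e-05. Hk3 had 25397, 23887 and 26922 in KO and 20239, 19624 and 16286 in WT (0.45 ± 0.10, adjusted p = 0.0014). For both genes all KO libraries lay above all WT libraries. Hk1 had 6497, 6372 and 6463 in KO and 6261, 6145 and 5299 in WT and did not pass (0.13 ± 0.07). Gpi1, for glucose 6-phosphate isomerase, the next enzyme, was lower in KO cells, with 2386, 2977 and 3107 in KO and 3632, 3916 and 3287 in WT (-0.36 ± 0.09, adjusted p = 0.003).

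Phosphofructokinase 1 commits sugar to glycolysis, and its 3 genes differed. The liver-type gene Pfkl (ENSMUSG00000020277, chr10:77986947-78010083, minus strand) had 1347, 1475 and 1648 in KO libraries, against 3392, 3347 and 2424 in WT with LPS. The KO mean of Pfkl was 48.8% of the WT mean, without overlap, and the log2 difference was -1.02 ± 0.12, adjusted p = 1.1e-06. The platelet-type gene Pfkp had 11387, 11142 and 11770.3 in KO and 9323, 9449 and 9268 in WT and was higher in KO cells (0.29 ± 0.04, adjusted p = 4.7e-06). The muscle-type gene Pfkm, with 23.6, 138 and 129 in KO and 106, 132 and 120.2 in WT, did not pass, and its first KO value is 1 read in KO LPS replicate 1. The log2 difference of Pfkm was -0.65 with that library and 0.16 without it. Pfkm passed as lower without KO LPS replicate 2 (-1.08, adjusted p = 0.0268) or replicate 3 (-1.04, adjusted p = 0.0397), within a range of 0.027 to 0.86.

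Pfkfb3 encodes an enzyme that makes fructose 2,6-bisphosphate, a strong activator of phosphofructokinase 1. Pfkfb3 (ENSMUSG00000026773, chr2:11471433-11554077, minus strand) had 13915, 16334 and 16429 in KO libraries, against 24886, 24344 and 25153 in WT with LPS. The WT libraries lay close together above all KO libraries, and the KO mean was 62.8% of the WT mean (-0.68 ± 0.06, adjusted p = 2.5e-09). Pfkfb4, its paralog, had 449, 298 and 278 in KO and 408, 364 and 320.1 in WT. It did not pass with all libraries (-0.12) and passed as lower without KO LPS replicate 1 (-0.33, adjusted p = 0.0145, range 0.015 to 1).

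In the lower pathway, Tpi1, the gene of triosephosphate isomerase (ENSMUSG00000023456, chr6:124810586-124814296, minus strand), had 3189, 3405 and 3357 in KO libraries, against 6306, 6348 and 5078 in WT with LPS. No library overlapped, and the KO mean was 56.1% of the WT mean (-0.83 ± 0.07, adjusted p = 5e-09). Gapdh, for the glyceraldehyde 3-phosphate dehydrogenase that follows, had 118, 163 and 154 in KO and 273, 257 and 264 in WT (-0.88 ± 0.16, adjusted p = 0.00024). These low Gapdh values are uncertain, because 82.5% of the 50-base windows of its longest protein-coding transcript also occur in other annotated genes. How reads matching several genes were counted is not given in the sources used here. The same share was 72.2% for Eno1, 68.0% for Pgk1, 41.5% for Pgam1, 36.6% for Higd1a, 34.4% for Pkm and 25.3% for Gpi1. It was 23.4% for Bnip3l, 17.1% for Pfkp, which overlaps Pitrm1 on the opposite strand, and 16.65% for Ldha. Apart from Bnip3 (62.5%), it was lower in the members not named here.

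Among the aldolases, Aldoc had 614, 392 and 463 in KO and 656, 687 and 645 in WT LPS libraries and was lower in KO cells (-0.46 ± 0.11, adjusted p = 0.0028), while Aldoa did not pass at -0.14 ± 0.10. The enolase genes Eno1 (-0.48 ± 0.12, adjusted p = 0.0064) and Eno2 (-0.52 ± 0.12, adjusted p = 0.0025) were lower in KO cells. The log2 difference of Eno2 was -0.32 without KO LPS replicate 1 (adjusted p = 0.0136, range 0.00046 to 0.28 over the alternatives). Here Pgk1 (-0.24) and Pgam1 (-0.09), for phosphoglycerate kinase and mutase, did not pass. Pkm, for pyruvate kinase, had 9852, 9884 and 10564 in KO and 12906, 12801 and 10953 in WT (-0.27 ± 0.07, adjusted p = 0.0066), a call that ended under median centring (-0.21, adjusted p = 0.0564, range 0.00082 to 0.15). The branch to lactate was lower too. Ldha, for lactate dehydrogenase A, had 10372, 10902 and 11034 in KO and 13994, 13608 and 12611 in WT (-0.31 ± 0.05, adjusted p = 4.2e-05). Slc16a3, for the lactate exporter MCT4 (ENSMUSG00000025161, chr11:120948480-120960868, plus strand), had 1394, 1327 and 1387 in KO and 2984, 2955 and 2036 in WT, a KO mean of 51.5% of the WT mean (-0.94 ± 0.14, adjusted p = 2.7e-05). The 3 KO values of Slc16a3 were close together and below all WT values.

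Outside glycolysis, the largest difference was in Vegfa, the gene of the angiogenic factor VEGF-A (ENSMUSG00000023951, chr17:46016993-46032369, minus strand). With LPS Vegfa had 591, 424 and 374 in KO libraries, against 1594, 1529 and 1355 in WT, a KO mean of 31.0% of the WT mean (-1.71 ± 0.11, adjusted p = 2.5e-11). Bnip3, for a BH3-only mitophagy receptor (ENSMUSG00000078566, chr7:138890836-138909519, minus strand), had 165, 253 and 197 in KO and 546, 622 and 620.0 in WT, a KO mean of 34.4% of the WT mean (-1.55 ± 0.12, adjusted p = 1e-09). Both genes separated the genotypes without overlap. Bnip3 shares 62.5% of the 50-base windows of its longest protein-coding transcript with other annotated genes. Bnip3 also overlaps Gm45507 on the opposite strand, and whether reads were counted by strand is not given in the sources used here. Other members overlap annotated genes too. Ankrd37 overlaps Ufsp2 and Lrp2bp on the opposite strand, with 406 overlapping bases counted over both genes, beside 1539 exon bases. Higd1a overlaps Gm47112 on the opposite strand over 683 of 3040 exon bases. Pkm overlaps Gm49759 on the same strand over 767 of 5001.

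Ddit4, for the mTORC1 inhibitor REDD1, had 70.9, 59.7 and 56.3 in KO and 147, 121 and 125 in WT LPS libraries (-1.06 ± 0.32, adjusted p = 0.019). Its first KO value is 3 reads, and without WT LPS replicate 1 it missed the threshold (-0.98, adjusted p = 0.0669, range 4.2e-05 to 0.067). Ak4, for a mitochondrial adenylate kinase, had 1559, 1586 and 1408 in KO and 2177, 2212 and 2334 in WT (-0.56 ± 0.08, adjusted p = 9.7e-06). Pdk1, for a kinase that shuts off pyruvate dehydrogenase, had 685, 832 and 753 in KO and 1097, 1071 and 1091 in WT (-0.53 ± 0.08, adjusted p = 2.9e-05). In Ak4 and Pdk1 too, no KO library reached the lowest WT library. Mxi1, for a MYC antagonist, was lower (-0.46 ± 0.07, adjusted p = 2.7e-05), as was Ero1l, for an oxidase that forms disulfide bonds in the endoplasmic reticulum (-0.44 ± 0.09, adjusted p = 0.00052).

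Bnip3l, the paralog of Bnip3, was higher with LPS, at 2292, 2338 and 2038 in KO and 1565, 1372 and 1816 in WT libraries (0.49 ± 0.08, adjusted p = 7.5e-05). Adm, for the vasodilator peptide adrenomedullin, had 213, 202 and 219 in KO and 69.3, 86.7 and 91.6 in WT, with no overlap and a KO mean of 256% of the WT mean. Adm missed the threshold in limma (1.35 ± 0.57, adjusted p = 0.092) and passed in edgeR (1.29, adjusted p = 5.4e-07), within a range of 5.4e-07 to 0.21 over the alternatives; outside LPS it lay between 0 and 5.32. Pdk3, Ankrd37, Ndrg1, P4ha1, P4ha2, Higd1a and Kdm3a did not pass, with log2 differences from -0.57 in Ankrd37 to 0.29 in Higd1a. P4ha1, for a collagen prolyl hydroxylase, stood at 8269, 9334 and 9282 in KO and 9955, 9584 and 9861 in WT. Without KO LPS replicate 2, Ankrd37, for an ankyrin repeat protein, passed as lower (-0.94, adjusted p = 0.0089, range 0.0089 to 0.86) and Pdk3, for a further pyruvate dehydrogenase kinase, as higher (0.39, adjusted p = 0.0101, range 0.01 to 0.93). Median centring also brought Pdk3 (0.32) and Higd1a, for a mitochondrial protein induced by hypoxia (0.36), past the threshold as higher.

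**Figure D2:**
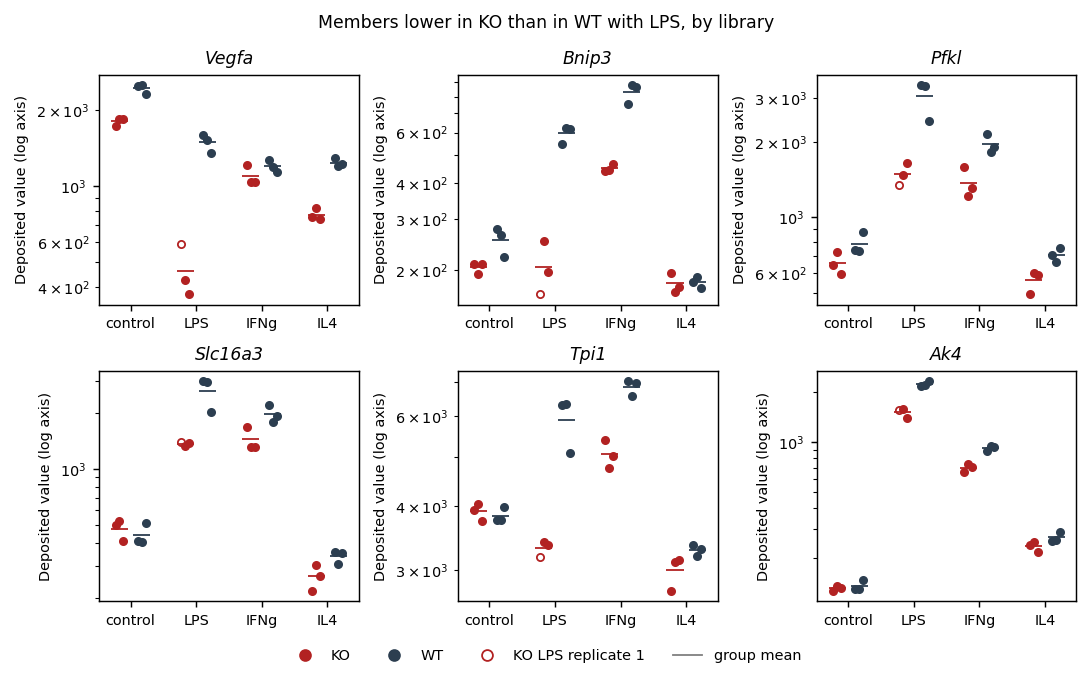
Normalized read counts on a log axis for 6 members lower in KO than in WT cells with LPS, by treatment, with KO left of WT; points are libraries, lines are group means and the open point is KO LPS replicate 1. With LPS the KO and WT points do not overlap in any of the 6 panels, and in Vegfa they also part in control and with IL4.

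Leaving out KO LPS replicate 1 changed 2 calls of the members with LPS: Slc2a3 was lost and Pfkfb4 was gained. The other 15 glycolysis calls and the 8 calls of other HIF-1 targets were found again in the same direction. KO and WT values then did not overlap for 18 glycolysis genes and 12 other targets, against 36.6% of all genes, with 2 KO libraries in place of 3. The median log2 difference became -0.32 over the glycolysis genes and -0.20 over the other targets, beside 0 over all genes. Over all genes that fit called 2151 higher and 1823 lower, in place of 1808 and 2333. Among the glycolysis genes that passed with all libraries, the log2 difference without that library was -0.59 for Slc2a1, 0.46 for Hk2, 0.44 for Hk3, -0.24 for Gpi1, -0.95 for Pfkl, 0.29 for Pfkp, -0.60 for Pfkfb3, -0.64 for Aldoc, -0.80 for Tpi1, -0.74 for Gapdh, -0.56 for Eno1, -0.32 for Eno2, -0.25 for Pkm, -0.29 for Ldha and -0.95 for Slc16a3. Among the other targets it was -0.46 for Pdk1, -1.41 for Bnip3, 0.47 for Bnip3l, -1.90 for Vegfa, -0.39 for Ero1l, -0.49 for Mxi1, -1.16 for Ddit4 and -0.58 for Ak4. Of the members that passed in neither fit, Pdk3 (0.25 with all libraries), Higd1a (0.29) and Ankrd37 (-0.57) stood at 0.12, 0.15 and -0.07 without it.

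A fit of the 6 LPS libraries alone called 8 glycolysis genes in place of 16 and 7 other targets in place of 8. The glycolysis calls that ended were Slc2a3 (adjusted p = 0.473), Hk2 (adjusted p = 0.0865), Hk3 (adjusted p = 0.0856), Gpi1 (adjusted p = 0.218), Aldoc (adjusted p = 0.254), Eno1 (adjusted p = 0.116), Eno2 (adjusted p = 0.278) and Pkm (adjusted p = 0.148). Among the other targets the calls of Bnip3l (adjusted p = 0.097) and Ero1l (adjusted p = 0.0982) ended, and Adm passed as higher (adjusted p = 0.011). The log2 differences are those of the fit to all libraries. Over all genes, the fit of the LPS libraries alone made 1021 calls in place of 4141. Fits of only the compared groups made more calls with IFNg (2050 in place of 1686) and with IL4 (2241 in place of 1731). In control such a fit made 1300 in place of 1334. Why the calls fell so far with LPS was not tested.

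**Figure D3:**
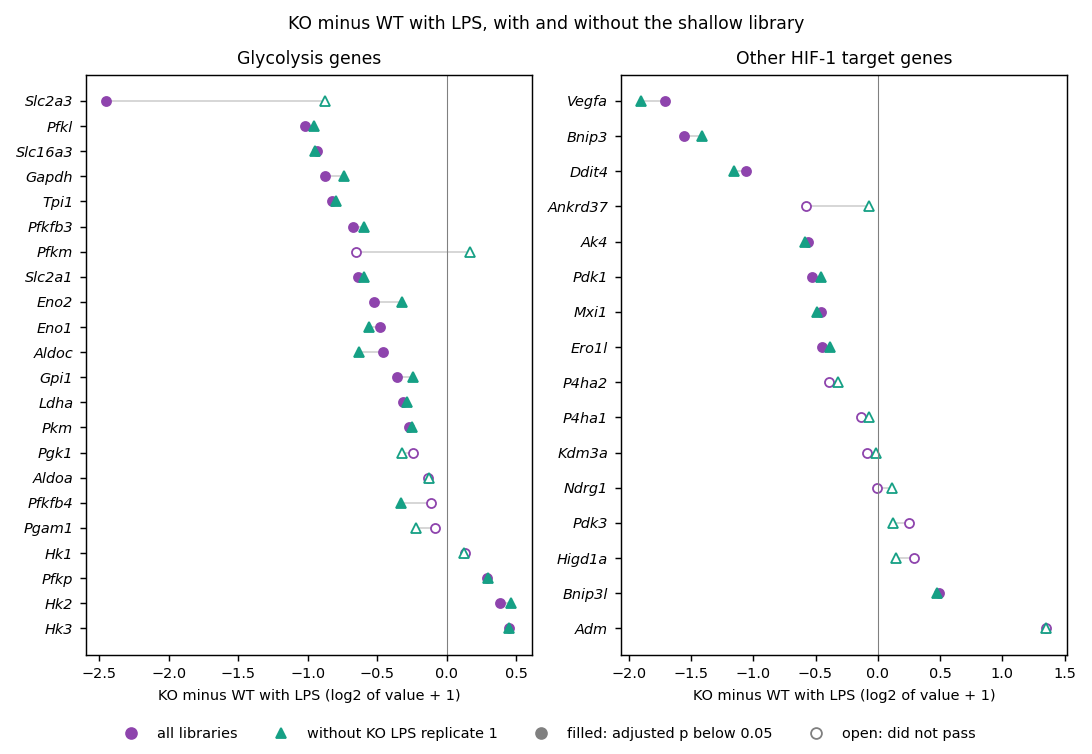
Difference between KO and WT cells with LPS (log2 of normalized read count + 1) for each member, with all libraries and without KO LPS replicate 1; filled symbols passed in limma. The 2 symbols lie close together for most members and far apart for Slc2a3, Pfkm and Ankrd37, which had 0, 1 and 1 reads in that library.

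In control cells few members were lower in KO cells, and several glycolysis genes were higher. Of the glycolysis genes 5 were higher (Slc2a1, Hk2, Hk3, Pfkp and Pfkfb3), 1 was lower (Aldoc) and 16 did not pass. Of the other HIF-1 targets Bnip3l was higher, Vegfa and Pdk1 were lower and 13 did not pass. The test called 7.16% of all genes (4.11% higher and 3.05% lower, or 766 and 568 genes, and 922 and 369 after median centring, which left the members' counts as they were). Values of KO and WT did not overlap for 12 glycolysis genes (6 each way) and 8 other targets (6 with KO below, 2 above), against 23.4% of all genes. Medians were 0.04 for glycolysis genes and -0.02 for the other targets, beside 0.00 for all genes.

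Aldoc had 526, 569.8 and 497 in KO libraries, against 833, 862 and 782 in WT control cells (-0.64 ± 0.11, adjusted p = 0.00023). Vegfa had 1738, 1853 and 1843 in KO and 2508, 2522 and 2323 in WT, a KO mean of 73.9% of the WT mean (-0.44 ± 0.11, adjusted p = 0.01). The Vegfa call was lost without KO control replicate 1 (-0.41, adjusted p = 0.056, range 9.4e-07 to 0.056). Pdk1 had 857, 813 and 909 in KO and 1101, 1143 and 1146 in WT (-0.39 ± 0.08, adjusted p = 0.0018). All 3 genes separated the genotypes without overlap. Hk2, at 1665, 1653 and 1507 in KO and 1139, 1303 and 1233 in WT (0.39 ± 0.06, adjusted p = 0.00016), and Pfkp, at 2841, 2772 and 2790.4 in KO and 2267, 2353 and 2355 in WT (0.27 ± 0.04, adjusted p = 3e-05), were higher in KO cells without overlap. Hk3 (0.38 ± 0.10, adjusted p = 0.013) missed the threshold without KO control replicate 2, WT control replicate 1 or WT control replicate 2 (adjusted p = 0.0948, 0.0991 and 0.0647; range 0.00051 to 0.13).

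Slc2a3 had 92.5, 102 and 88.6 in KO libraries, against 204, 250.2 and 237 in WT control cells, and KO averaged 41.0% of WT. In the fit to all 24 libraries, with the 0 of KO LPS replicate 1 among them, Slc2a3 did not pass (-1.27 ± 0.73, adjusted p = 0.48). It passed without that library (adjusted p = 0.00333) and in edgeR (adjusted p = 1.2e-08), within a range of 1.2e-08 to 0.65. With IL4 the same gene stood at 65.0, 58.5 and 63.9 in KO and 144, 129.9 and 134 in WT, with an adjusted p of 0.48 with that library and 0.00932 without it (range 5.5e-07 to 0.68). In both treatments every KO value lay below every WT value. Leaving that library out also brought the control differences of Pfkfb4 (-0.30), Eno2 (0.34) and Bnip3 (-0.31) past the threshold, which makes 9 glycolysis genes and 4 other targets. Calls rose over all genes too, to 1006 higher and 828 lower in control, in place of 766 and 568.

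With IFNg, 8 glycolysis genes were lower in KO cells (Slc2a1, Hk1, Pfkl, Pfkfb4, Aldoc, Tpi1, Ldha and Slc16a3), Pfkfb3 was higher and 13 did not pass. Of the other HIF-1 targets Pdk1, Bnip3, Mxi1 and Ak4 were lower, Bnip3l was higher and 11 did not pass. The test called 9.05% of all genes (4.83% higher and 4.21% lower, or 901 and 785 genes, and 1134 and 442 after median centring). The median was -0.26 over glycolysis genes, -0.04 over the other targets and -0.03 over all genes. KO and WT did not overlap for 13 glycolysis genes (12 with KO below), 8 other targets (5 below) and 27.9% of all genes. Median centring left 4 glycolysis genes lower and 1 higher, and ended the calls of Slc2a1, Hk1, Ldha and Slc16a3. The dendritic cell marker sum was 44.1 to 56.2 in KO and 128 to 151 in WT IFNg libraries, most of it Xcr1 with Flt3 at 0. The T and NK cell sum was 32.6 to 49.1 in KO and 21.5 to 30.9 in WT IFNg libraries. The fibroblast sum was 158 to 193 in KO and 196 to 232 in WT. The part of these marker sums in these results was not tested.

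Bnip3 had 442, 446 and 468 in KO libraries, against 753, 878 and 862 in WT cells with IFNg (-0.87 ± 0.12, adjusted p = 1.5e-05). Pdk1 had 640.4, 639 and 616 in KO and 996, 1121 and 1061 in WT (-0.74 ± 0.08, adjusted p = 4e-07). The KO values of both were tightly grouped below the WT values. Aldoc had 307, 299 and 301 in KO and 567, 483 and 515 in WT (-0.78 ± 0.11, adjusted p = 1.4e-05), and Pfkfb4 had 286, 318 and 328 in KO and 575, 504 and 506 in WT (-0.76 ± 0.13, adjusted p = 0.00016). Pfkl (-0.53 ± 0.12, adjusted p = 0.0057), Tpi1 (-0.44 ± 0.07, adjusted p = 0.00011) and Ak4 (-0.40 ± 0.08, adjusted p = 0.0013) were lower in KO cells here as with LPS. With only the IFNg libraries fitted, Pfkl (adjusted p = 0.0538, range 8.9e-05 to 0.054) and Mxi1 (adjusted p = 0.0586, range 0.0014 to 0.059) missed the threshold. Vegfa, by contrast, had 1211, 1041 and 1040.0 in KO and 1275, 1195 and 1139.8 in WT and did not pass (-0.13 ± 0.11).

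Some IFNg calls rested on few libraries. Slc16a3 (-0.46 ± 0.14, adjusted p = 0.043) missed the threshold when KO IFNg replicate 2 or 3 or any WT IFNg replicate was left out, up to an adjusted p of 0.216 without WT IFNg replicate 1 (range 0.0021 to 0.22). Slc2a1 (-0.25 ± 0.08, adjusted p = 0.036) missed it without the same libraries, up to an adjusted p of 0.189 (range 0.007 to 0.24). Hk1 (-0.28 ± 0.07, adjusted p = 0.012) missed it without KO IFNg replicate 2, KO IFNg replicate 3 or WT IFNg replicate 3 (adjusted p = 0.0803, 0.0619 and 0.0726; range 0.0014 to 0.11). Gpi1 (-0.26 ± 0.09, adjusted p = 0.055) lay just outside the threshold and passed when KO IFNg replicate 1 was dropped (adjusted p = 0.027) and when KO LPS replicate 1 was (adjusted p = 0.00998; range 0.0072 to 0.32). Pfkm, at 108, 91.4 and 96.4 in KO and 172, 149.9 and 141 in WT (-0.64 ± 0.36), passed without KO LPS replicate 1 (adjusted p = 8.5e-05) and not with it (adjusted p = 0.39, range 8.5e-05 to 0.63).

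With IL4 few members differed. Of the glycolysis genes Eno1 was lower and Pfkfb3 higher in KO cells, and of the other HIF-1 targets Vegfa was lower and Bnip3l and Pdk3 were higher, while 9.29% of all genes were called, 6.14% higher and 3.14% lower. Vegfa had 758, 818 and 744 in KO libraries, against 1290.2, 1207 and 1229.5 in WT cells with IL4, a KO mean of 62.3% of the WT mean (-0.68 ± 0.11, adjusted p = 6.4e-05), with no overlap. Pfkfb3 had 1159, 1047 and 1089 in KO and 832, 814 and 854 in WT (0.40 ± 0.06, adjusted p = 1.3e-05). Eno1 (-0.42 ± 0.12, adjusted p = 0.031) lost its call without KO IL4 replicate 1 or any WT IL4 replicate, up to an adjusted p of 0.247 (range 0.0027 to 0.25). Pdk3 (0.37 ± 0.11, adjusted p = 0.037) lost it without KO IL4 replicate 1 or 3 or any WT IL4 replicate, up to 0.188 as adjusted p (range 0.0022 to 0.19). Bnip3l (0.34 ± 0.08, adjusted p = 0.0071) lost it without KO IL4 replicate 1 (adjusted p = 0.0673, range 0.00049 to 0.067).

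Values did not overlap with IL4 for 18 glycolysis genes (14 with KO below, 4 above) and 7 other targets (3 below, 4 above), against 32.3% of all genes. Their median difference was -0.18 for the 22 glycolysis genes and 0.01 for the other targets, beside 0.00 for all genes. Without KO LPS replicate 1 the calls numbered 4 glycolysis genes and 6 other targets, with Slc2a3, Hk3, Pdk1, Ankrd37 and Ndrg1 added. Calls over all genes rose as well, to 1508 higher and 876 lower, in place of 1145 and 586. Ankrd37 had 51.4, 43.6 and 51.1 in KO and 86.5, 73.8 and 77.3 in WT (-0.69 ± 0.27), with an adjusted p of 0.00201 without that library and 0.14 with it (range 0.00057 to 0.34). The neutrophil marker sum was 269 to 323 in KO and 497 to 621 in WT IL4 libraries, with Ly6g at 0. The dendritic cell sum was 11.2 to 12.8 in KO and 21.7 to 30.6 in WT. The T and NK cell sum was 43.6 to 60.3 in KO and 33.4 to 43.5 in WT. The erythroid sum was 0 to 1.95 in KO and 2.31 to 3.43 in WT. The part of these marker sums in these results was not tested.

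Across the 4 treatments 27 of the 38 members were called in at least 1 comparison of the genotypes and 11 in none, while 29.7% of all genes were called in at least 1. Bnip3l and Pfkfb3 were called in all 4, as were 2.05% of all genes. Bnip3l was higher in KO cells each time, from 0.34 with IL4 to 0.49 with LPS, and its control values were 5012, 4886 and 5559 in KO and 4086, 3976 and 3691 in WT. Pfkfb3 and Slc2a1 were called in opposite directions. Pfkfb3 was higher in KO cells in control (1046, 1076 and 1016 in KO and 801, 793 and 852 in WT; 0.36 ± 0.06, adjusted p = 6.9e-05), with IFNg (4881, 4886 and 5071 in KO and 3379, 3419.5 and 3498 in WT; 0.53 ± 0.06, adjusted p = 2.5e-07) and with IL4, and lower with LPS. Slc2a1 was higher in KO control cells (751, 785 and 723 in KO and 560.2, 589 and 618 in WT; 0.35 ± 0.08, adjusted p = 0.0029) and lower with LPS and, less firmly, with IFNg.

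**Figure D4:**
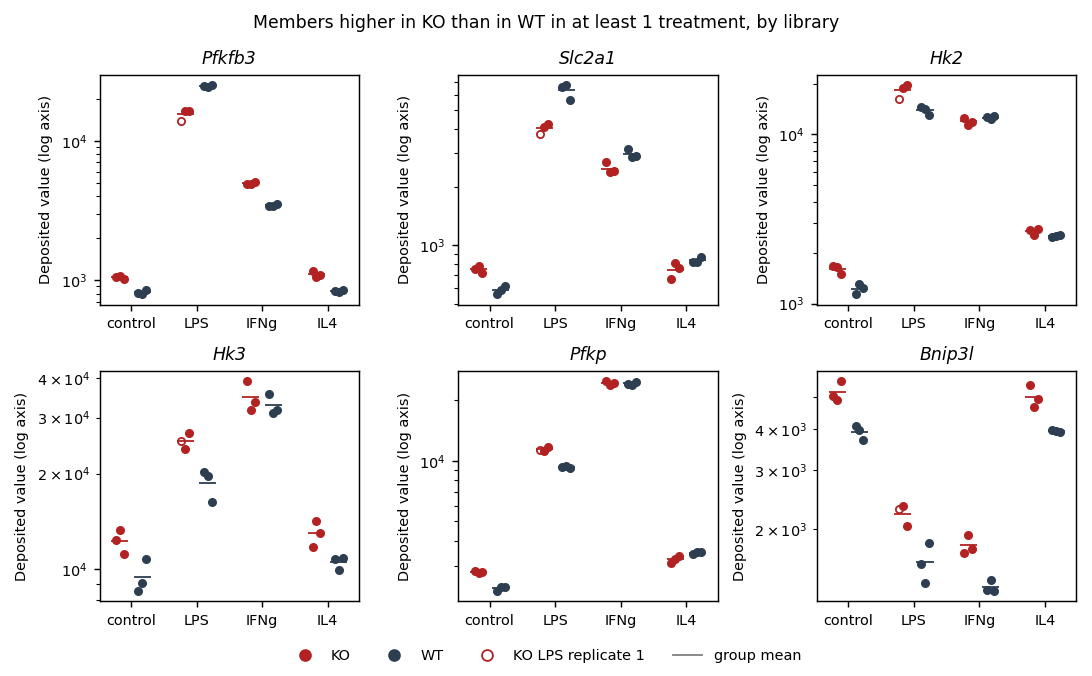
Normalized read counts on a log axis for 6 members higher in KO than in WT cells in at least 1 treatment, with KO left of WT; points are libraries, lines are group means and the open point is KO LPS replicate 1. KO points lie above WT points in every treatment for Bnip3l, and the order of Pfkfb3 turns round with LPS.

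LPS itself moved most members in both genotypes. In KO cells 11 glycolysis genes rose and 7 fell and 9 other targets rose and 5 fell, with 57.0% of all genes called (24.5% higher and 32.5% lower). In WT cells 14 glycolysis genes rose and 5 fell and 10 other targets rose and 4 fell, with 53.3% of all genes called (25.5% higher and 27.8% lower). Large rises were those of Pfkfb3 (log2 difference 3.89 in KO and 4.93 in WT), Ak4 (3.52 in KO and 4.04 in WT), Hk2 (3.50 in KO and 3.51 in WT), P4ha1 (2.55 in KO and 2.60 in WT) and Slc2a1 (2.42 in KO and 3.42 in WT). The KO values without KO LPS replicate 1 were 3.97 for Pfkfb3, 3.50 for Ak4, 3.58 for Hk2, 2.61 for P4ha1 and 2.47 for Slc2a1. Adm rose too, but its control values of 0 to 3.22 give no stable fold. Eno2 (-2.10 in KO and -1.23 in WT), Vegfa (-1.99 in KO and -0.72 in WT), Mxi1 (-1.73 in KO and -1.28 in WT), Bnip3l (-1.21 in KO and -1.31 in WT) and Pfkfb4 (-1.10 in KO and -1.28 in WT) fell. Means of Slc2a3, Ankrd37 and Pfkm were lower with LPS too, at 48.7, 73.8 and 119 in WT cells against 230, 226 and 341 in WT control. In KO cells they were 16.9, 55.0 and 96.8 against 94.5, 302 and 273, with 0, 1 and 1 reads in KO LPS replicate 1.

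The scale matters here, because median centring moved the median of all genes by 0.42 in both genotypes with LPS, and by 0.33 in KO and 0.32 in WT cells with IFNg. After centring, 15 glycolysis genes rose and 4 fell with LPS in KO cells and 17 rose and 4 fell in WT cells, and 11 other targets rose and 4 fell in each genotype. The split of all genes became 6326 higher and 3947 lower in KO (4571 and 6060 as deposited) and 6823 and 3065 in WT (4759 and 5183 as deposited). Members with small changes turned sign, so no direction is given for them: in KO cells Tpi1 (-0.24 as deposited and 0.18 centred), Pkm (-0.31 and 0.10), Aldoa (-0.17 and 0.25), Aldoc (-0.14 and 0.28), Pdk1 (-0.19 and 0.23) and Bnip3 (-0.02 and 0.40), and in WT cells Gpi1 (-0.15 and 0.27), Aldoc (-0.32 and 0.10) and Pdk1 (-0.06 and 0.36).

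In the test of the genotype by LPS interaction, 9 glycolysis genes (Slc2a1, Pfkl, Pfkfb3, Tpi1, Gapdh, Eno2, Pkm, Ldha and Slc16a3) and 5 other targets (Bnip3, Vegfa, Mxi1, Ero1l and Ak4) passed, each with a negative sign, so that the LPS minus control difference was less positive or more negative in KO than in WT cells. The same test called 8.79% of all genes, 4.29% with a positive and 4.50% with a negative sign, and the median interaction was -0.34 over glycolysis genes, -0.15 over the other targets and -0.08 over all genes. The interaction was -1.28 ± 0.15 for Vegfa, -1.24 ± 0.17 for Bnip3, -1.04 ± 0.08 for Pfkfb3, -1.04 ± 0.20 for Slc16a3 and -0.995 ± 0.107 for Slc2a1, all called in each of 20 alternatives. When KO LPS replicate 1 was left out these were -1.46 for Vegfa, -1.10 for Bnip3, -0.96 for Pfkfb3, -1.05 for Slc16a3 and -0.95 for Slc2a1. With only the compared groups fitted, Gapdh (adjusted p = 0.0554, range 0.0035 to 0.055) and Ldha (adjusted p = 0.0667, range 0.00044 to 0.067) missed the threshold. Bnip3 rose in WT cells (1.23 ± 0.12) and stood at -0.02 ± 0.12 in KO cells. Hk2, Pfkp and P4ha1 had interactions of -0.01 ± 0.09, 0.02 ± 0.05 and -0.05 ± 0.08 that did not pass. Pkm (-0.35 ± 0.10, adjusted p = 0.029) lost its call without KO control replicate 1 or 2, WT control replicate 1 or 2, or WT LPS replicate 1 or 2, up to an adjusted p of 0.0908 (range 0.0042 to 0.098). Ero1l (-0.45 ± 0.12, adjusted p = 0.02) lost it without KO control replicate 1 (adjusted p = 0.0699), without WT LPS replicate 3 (adjusted p = 0.0542) and under median centring (adjusted p = 0.0634; range 0.0082 to 0.097). Without KO LPS replicate 1, 10 glycolysis genes and 5 other targets passed, the added gene being Pfkm with a positive sign (0.49). Over all genes that fit called 1026 with a positive and 881 with a negative sign, in place of 800 and 839.

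**Figure D5:**
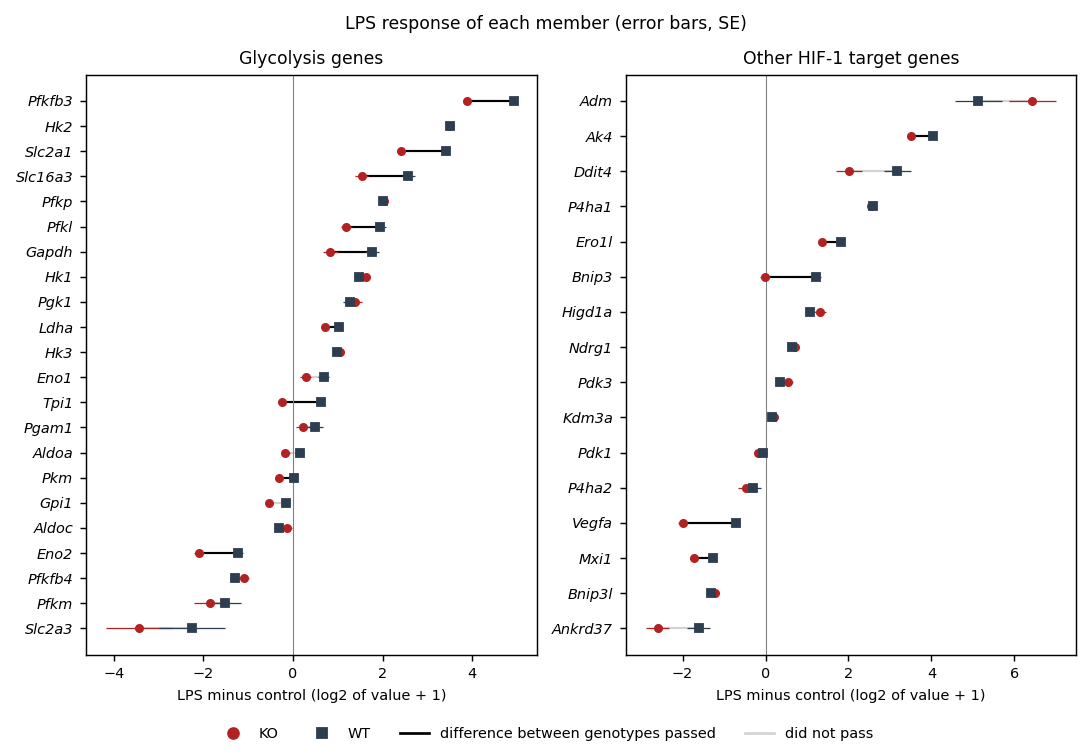
LPS minus control (log2 of normalized read count + 1, error bars SE) for each member in KO and in WT cells; a black bar joins them where the difference between the genotypes passed in limma. Pfkfb3, Slc2a1, Slc16a3, Bnip3 and Vegfa have long black bars, with KO to the left of WT, and Hk2, Pfkp and P4ha1 have overlapping symbols.

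With IFNg, 13 glycolysis genes rose and 7 fell in KO cells (46.0% of all genes called, 22.3% higher and 23.7% lower) and 15 rose and 5 fell in WT cells (45.1% called, 22.5% higher and 22.6% lower). Other targets split 7 rising to 7 falling in KO and 7 to 6 in WT cells. After centring, the glycolysis genes split 15 to 5 in KO and 17 to 4 in WT cells and the other targets 8 to 6 in KO and 8 to 5 in WT, with all genes at 6022 to 2564 in KO (4152 to 4420 as deposited) and 6107 to 2515 in WT (4201 to 4211 as deposited). Pfkp rose most (3.12 in KO and 3.39 in WT), followed by Hk2 (2.89 in KO and 3.36 in WT), and Mxi1 fell (-2.60 in KO and -2.29 in WT). The mean of Slc2a3 was lower with IFNg too, at 19.3 against 94.5 in control in KO cells and 26.3 against 230 in WT cells.

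The genotype by IFNg interaction passed for 5 glycolysis genes, against 2.50% of all genes, 1.32% with a positive and 1.18% with a negative sign. They were Slc2a1 (-0.61 ± 0.11), Hk2 (-0.47 ± 0.09), Tpi1 (-0.47 ± 0.10), Pfkp (-0.27 ± 0.05) and Ldha (-0.26 ± 0.07), whose rise with IFNg was smaller in KO cells. Ldha kept its call in 7 of 21 alternatives, and of the 6 control and 6 IFNg libraries only the removal of KO control replicate 3, WT control replicate 3 or WT IFNg replicate 2 left it called; the adjusted p was 0.046 with all libraries and 0.0027 to 0.23 over the alternatives. Pfkp missed the threshold under median centring (adjusted p = 0.0735) and in edgeR (adjusted p = 0.0634; range 8.8e-06 to 0.073). Among the other targets limma called 0 interactions with IFNg, against 4 at an unadjusted p under 0.05, 1 in edgeR and 2 in DESeq2. Without KO LPS replicate 1 limma called Bnip3 (-0.56, adjusted p = 0.019, range 0.012 to 0.28). Over all genes that fit called 357 with a positive and 333 with a negative sign, in place of 246 and 220.

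IL4 moved fewer members. In KO cells 4 glycolysis genes rose and 5 fell and 4 other targets rose and 7 fell, with 23.2% of all genes called (12.6% higher and 10.5% lower). In WT cells 6 glycolysis genes rose and 4 fell and 2 other targets rose and 8 fell, with 20.1% called (10.6% higher and 9.56% lower). Ndrg1, a stress-responsive gene (-2.24 in KO and -2.54 in WT), Ankrd37 (-2.61 in KO and -1.50 in WT), Vegfa (-1.23 in KO and -0.98 in WT) and Eno2 (-1.35 in KO and -0.82 in WT) fell, and Hk2 (0.74 in KO and 1.03 in WT) and Ak4 (0.83 in KO and 0.97 in WT) rose. The interaction passed for Slc2a1 (-0.52 ± 0.11) and Pfkp (-0.38 ± 0.05), against 3.61% of all genes, 2.45% positive and 1.15% negative. Slc2a1 rose in WT cells (0.51 ± 0.08) and stood at -0.01 ± 0.08 in KO cells, while Pfkp rose in both (0.21 in KO and 0.59 in WT). For the other targets limma called 0 interactions with IL4, against 3 at an unadjusted p under 0.05, 1 in edgeR and 2 in DESeq2. Without KO LPS replicate 1 it called Ankrd37 (-1.11, adjusted p = 0.00136, range 4.8e-05 to 0.31) and Ndrg1 (0.30, adjusted p = 0.0186, range 0.019 to 0.49), and 5 glycolysis genes in place of 2, with Hk2 (-0.29), Aldoc (0.45) and Eno2 (-0.53) added. Over all genes that fit called 579 with a positive and 321 with a negative sign, in place of 457 and 215.

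Levels per kilobase of annotated exon let the isoenzymes be compared. Hk3 was the most abundant hexokinase gene of the 3 in all 8 groups, at 2568 in WT control to 9454 in KO IFNg cells, while Hk2 went between 205 in WT control and 3052 in KO LPS cells. Pfkp led the phosphofructokinase genes in every group. With LPS, Pfkp stood at 853 ± 23.6 in KO and 697 ± 6.94 in WT cells, Pfkl at 223 ± 22.7 in KO and 458 ± 81.8 in WT, and Pfkm at 29.0 ± 19.0 in KO and 35.7 ± 3.85 in WT (SD, n = 3). Without KO LPS replicate 1, which held 1 read of Pfkm, the KO level was 39.9 for Pfkm, above the WT mean, 234 for Pfkl and 855 for Pfkp (n = 2). Aldoa stood at 4614 to 5836 over the groups and Aldoc at 92.7 to 253. Slc2a1 exceeded Slc2a3 in every group, and with LPS Slc2a1 had 1153 in KO and 1801 in WT cells, beside 2.34 in KO and 6.72 in WT for Slc2a3. The KO levels without that library were 1190.0 for Slc2a1 and 3.51 for Slc2a3. These levels do not take into account which isoform was expressed.

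Further genes of carbohydrate metabolism and further HIF-1 targets were read from 2 lists by pathway. With LPS 9 of 34 tested genes of glycolysis side branches, the pentose phosphate pathway and pyruvate use were lower in KO cells and 2 were higher, and 11 of 39 further HIF-1 targets were lower and 6 higher. The share called was 32.4% of the first list and 43.6% of the second, against 22.2% of all genes (12.5% lower and 9.70% higher). From each list the 3 largest called differences without overlap are given. Those of the first list were Pdp2, for a pyruvate dehydrogenase phosphatase (117 ± 19.9 in KO and 219 ± 22.1 in WT; -0.91), Pfkfb2, for a further fructose 2,6-bisphosphate enzyme (29.8 ± 5.42 in KO and 55.8 ± 10.2 in WT; -0.88), and Gys1, for muscle glycogen synthase (155 ± 15.2 in KO and 284 ± 9.03 in WT; -0.87; SD, n = 3 each). Those of the second list were Pgf, for placental growth factor (-2.52, and -1.40 with an adjusted p of 0.13 without KO LPS replicate 1, where it had 0 reads), Angptl4, for an inhibitor of lipoprotein lipase (17.2 ± 6.02 in KO and 5.73 ± 3.36 in WT; 1.55), and Pdgfb, for a platelet-derived growth factor chain (418 ± 49.5 in KO and 1215 ± 124 in WT; -1.54 ± 0.12, adjusted p = 6.3e-10). With only the LPS libraries fitted, the calls of Pdp2 (adjusted p = 0.0509), Pfkfb2 (0.208), Pgf (0.335) and Angptl4 (0.308) ended. Pgf also missed the threshold without WT LPS replicate 1 (adjusted p = 0.0684) and in DESeq2 (0.116; range 0.00016 to 0.33). The log2 difference without KO LPS replicate 1 was -0.76 for Pdp2, -0.73 for Pfkfb2, -0.92 for Gys1, 1.30 for Angptl4 and -1.63 for Pdgfb. In that library Pfkfb2 and Angptl4 had 1 read each, Pdp2 had 4 and Gys1 had 7, so their KO means and SDs are uncertain.

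In control cells the first list had 2 genes higher and 1 lower and the second 2 higher and 4 lower, 8.82% and 15.4% of their tested genes, against 7.16% of all genes. The named genes were Pdk4, for a pyruvate dehydrogenase kinase (-1.84, at 1.63 ± 0.868 in KO and 8.15 ± 0.852 in WT), Galm, for galactose mutarotase (0.35), Pdp1, for a pyruvate dehydrogenase phosphatase (0.28), Nos2, for inducible nitric oxide synthase (-1.16, at 7.58 ± 1.18 in KO and 21.5 ± 15.8 in WT), Anxa1, for annexin A1 (0.65), and Tfrc, for the transferrin receptor (-0.49). Of these calls, that of Pdk4 was found in 7 of 15 alternatives and missed the threshold when KO control replicate 1 or 2 or any WT control replicate was left out (range 0.00077 to 0.15). That of Galm was found in 10 of 15 and missed it without any 1 KO control replicate or WT control replicate 2 or 3 (range 0.00015 to 0.18). That of Nos2 was lost in edgeR (-0.97, adjusted p = 0.0796) and with only the control libraries fitted (adjusted p = 0.34, range 3.6e-06 to 0.34). With IFNg the first list had 2 higher and 4 lower and the second 4 each way (17.6% and 20.5%, against 9.05% of all genes), with Gpd2 (-0.65), Pck2 (0.51), Gys1 (-0.51), Tfrc (-0.69), Bhlhe40 (0.66) and Anxa1 (0.65) named. With IL4 the first list had 3 higher and 1 lower and the second 1 higher and 3 lower (11.8% and 10.3%, against 9.29% of all genes), with Tkt, for transketolase (-0.39), Pdp1 (0.35), Slc16a7 (0.30), Nos2 (126 ± 13.5 in KO and 34.7 ± 3.98 in WT; 1.83 ± 0.27, adjusted p = 2.5e-05), Tfrc (-0.72) and Pdgfb (-0.56) named. Pck2 missed the threshold without KO IFNg replicate 1 (adjusted p = 0.0534, range 0.00011 to 0.053). Tkt missed it without KO IL4 replicate 1 or WT IL4 replicate 1 or 3 (range 0.0022 to 0.21), and Slc16a7 without KO IL4 replicate 1 or 3 or WT IL4 replicate 1 or 3 (range 0.0012 to 0.13). The calls of Tfrc, Pdp1 and Anxa1 named here were found in each of 15 alternatives.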

How the data were processed

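Messenger RNA had been sequenced from 24 libraries of mouse bone marrow-derived macrophages. Per the submitters' processing notes TopHat2 2.2.1, Cufflinks 2.2.1 and Cuffdiff were used with the mm10 (GRCm38) build. How the deposited table was counted, and how its factor per library was set, is not given in the sources used here. The deposited values are a signal, read counts divided by 1 factor per library by the authors: dividing each column by its smallest step gave whole reads for 100% of values, within 0.05 reads. Samples were grouped by the labels' genotype and treatment.

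From these values, log2 of the value plus a pseudocount of 1 was computed for the 18637 genes that reached 1 in 3 or more libraries. All 24 libraries were fitted together with limma 3.58.1 in R 4.3.3 with a mean-variance trend, and p-values were adjusted by the Benjamini-Hochberg method over all genes tested, with a threshold of 0.05. Fold changes on this scale can understate the change of low genes, and a value of 0 or 1 read in 1 library can overstate it. Between KO and WT cells with LPS, Slc2a3 stood at -2.45 here and -0.72 in edgeR, and Pfkm at -0.65 and 0.08. Read totals of 1478507 to 73409343 set the precision. Alternatives were pseudocounts of 0.5 and 10, no filter, median centring, a replicate block, only the groups compared, each library left out, and edgeR 4.0.16 (quasi-likelihood) and DESeq2 1.42.0 on the recovered reads. Between KO and WT cells with LPS edgeR called 1887 genes higher and 1656 lower.

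The members and the gene, marker and motif lists were chosen with earlier results of these data known. Any member could be named, and of each further list up to 3 called genes per comparison, those of largest difference without overlap between KO and WT. Shared windows of the longest protein-coding transcript, promoters and coordinates came from the GRCm38 annotation and RefSeq tables. A promoter entry was found for 35 of 38 members, Ero1l under the name Ero1a, and the first listed one was used.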

Additional observations from a re-analysis of the deposited data

Results flagged for a closer look

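A test of the difference between the 2 genotypes' responses to the same treatment singled out 21 values, in log2 units of the KO response minus the WT response. With LPS these were Vegfa at -1.28, Bnip3 at -1.24, Slc16a3 at -1.04, Pfkfb3 at -1.04, Slc2a1 at -0.995, Gapdh at -0.93, Eno2 at -0.86, Tpi1 at -0.86, Pfkl at -0.77, Ak4 at -0.52, Ero1l at -0.45, Mxi1 at -0.45, Pkm at -0.35 and Ldha at -0.30. With IFNg they were Slc2a1 at -0.61, Hk2 at -0.47, Tpi1 at -0.47, Pfkp at -0.27 and Ldha at -0.26. With IL4 they were Slc2a1 at -0.52 and Pfkp at -0.38. Slc2a1 was the only member that passed in all 3 tests, which share the control libraries of both genotypes.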

How the results depend on the processing

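With LPS, the number of glycolysis genes called between KO and WT cells was 15 to 17 when 1 library was left out (16 with all) and 8 with only the LPS libraries fitted, and that of other HIF-1 targets 7 to 10 (8 with all). In control, edgeR called 5 other HIF-1 targets in place of 3. With IFNg, median centring called 5 glycolysis genes in place of 9. With IL4, glycolysis calls were 6 in edgeR, 8 in DESeq2 and 1 to 4 with 1 library left out, in place of 2, and other targets 5 in edgeR, 7 in DESeq2 and 2 to 6 with 1 library left out, in place of 3. The IFNg interaction called 3 glycolysis genes under centring in place of 5, and for other targets, in place of 0, it called 2 with only the compared groups, 1 in edgeR, 2 in DESeq2 and 0 to 1 with 1 library left out. The IL4 interaction called 4 glycolysis genes with only the compared groups, 4 in edgeR, 5 in DESeq2 and 2 to 5 with 1 library left out, in place of 2, and for other targets, in place of 0, 1, 1, 2 and 0 to 2 under the same settings in the same order. The cause of these shifts was not tested.

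Median centring turned the sign of some members. In WT cells these were Gpi1 (0.27), Aldoc (0.10) and Pdk1 (0.36) with LPS and Gpi1 (0.30) and Aldoa (0.31) with IFNg. In KO cells they were Aldoa (0.25), Aldoc (0.28), Tpi1 (0.18), Pkm (0.10), Pdk1 (0.23) and Bnip3 (0.40) with LPS. With IFNg in KO cells they were Gpi1 (0.04) and Aldoa (0.09). The LPS interaction of Pfkm was -0.76 without KO LPS replicate 2 and 0.49 without KO LPS replicate 1. Over single members, leaving out 1 library kept the call in 3891 of the fits, ended it in 87 and added it in 49, and the sign turned in 1. The other alternatives kept it in 3768, ended it in 68 and added it in 103, and the sign turned in 13. A turned sign was counted where at least 1 of the compared fits passed, so it need not reverse a call.

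Over all genes, KO against WT cells gave 4141 calls with LPS and 1021 with only the LPS libraries, 1686 with IFNg against 2533 in edgeR and 2588 in DESeq2, and 1731 with IL4 against 2862 in edgeR and 2722 in DESeq2. The split with LPS was 1935 higher and 1646 lower in DESeq2. The LPS interaction gave 1639 calls and 862 with only the compared groups, the IFNg interaction 466 and 844 in DESeq2, and the IL4 interaction 672 and 1169 in DESeq2, with 515 positive and 410 negative in edgeR against 457 and 215.

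Same-numbered libraries did not deviate together (correlation -0.55 to 0.47 over 84 pairs, 19 of them over 0.1, and 3 of 24 libraries closest to their own number). With 3 libraries per group this check cannot tell whether same-numbered samples share a mouse, culture or batch. The labels do not state it. With the replicate number as a block, glycolysis and other HIF-1 calls between KO and WT cells were 6 and 3 in control, 16 and 8 with LPS, 7 and 5 with IFNg and 2 and 2 with IL4. Depth limits the low members in KO LPS replicate 1, where 3 reads are worth 70.9 normalized read counts.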
